A study of Mus musculus with 10 samples.

Results

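Ctss, the cathepsin of antigen-presenting cells, was 2.04-fold higher in livers with hepatocyte Bap1 targeting and 5.36-fold higher after carbon tetrachloride injury than in livers with the non-targeting guide and vehicle, and it was measured here beside 9 other lysosomal cathepsins: Ctsa, Ctsb, Ctsc, Ctsd, Ctse, Ctsh, Ctsk, Ctsl and Ctsz. The 10 genes were taken by symbol from a table of 55291 genes. The family was chosen by measured values of these same libraries, since Ctss is higher with Bap1 targeting and with injury, so Ctss is described without a test throughout and tests are given for the other 9. All 10 were among the 17015 genes that passed the filter on low counts.

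The data are bulk RNA-seq of mouse liver from 4 groups: NTC-Veh (n = 2), sgBap1-Veh (n = 2), NTC-CCl4 (n = 3) and sgBap1-CCl4 (n = 3). All mice were females of 16 to 20 weeks that carried a Cas9 allele behind a Lox-Stop-Lox cassette, and all received AAV8 with a U6-driven guide RNA and Cre under the hepatocyte promoter TBG. The guide was a non-targeting control (NTC) or was directed at Bap1, a deubiquitinase gene (sgBap1). On day 10 the mice were given CCl4, a solvent that injures the liver, at 1 part in 9 parts of olive oil, or olive oil alone (Veh), and livers were harvested after 48 h. Cas9 is switched on only where Cre is made, so the Bap1 of macrophages and other non-hepatocytes is not targeted by design, while the RNA is that of whole tissue.

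Cathepsins are proteases of the lysosome, the acidic compartment where proteins taken up or turned over by a cell are degraded. They are made as inactive precursors and are carried to the lysosome largely by mannose 6-phosphate receptors. Most are cysteine proteases (Ctsb, Ctsc, Ctsh, Ctsk, Ctsl, Ctss, Ctsz), Ctsd and Ctse are aspartic proteases, and Ctsa is a serine carboxypeptidase. The cysteine proteases among them are held in check outside the lysosome by cystatins. In liver, hepatocytes and Kupffer cells, the resident macrophages, both hold many lysosomes.

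The sequences before the gene starts are shown for the members whose levels differed most between groups and that the promoter table holds: Ctss, its neighbour Ctsk, Ctsc and Ctsd. Each line gives the 250 bases before the start in RefSeq on GRCm38.p6, 5′ to 3′ on the strand of the gene, with motif letters in capitals. The windows are chr3:95526536-95526785 (plus strand) for Ctss, chr3:95498960-95499209 (plus) for Ctsk, chr7:88277835-88278084 (plus) for Ctsc and chr7:142387828-142388077 (minus) for Ctsd. RefSeq starts differ from the GENCODE gene positions given below for some members. The Ctsd window lies mostly inside its GENCODE gene body. The windows of Ctsl and of the second start of Ctsa, not printed, lie wholly inside theirs.
Ctss: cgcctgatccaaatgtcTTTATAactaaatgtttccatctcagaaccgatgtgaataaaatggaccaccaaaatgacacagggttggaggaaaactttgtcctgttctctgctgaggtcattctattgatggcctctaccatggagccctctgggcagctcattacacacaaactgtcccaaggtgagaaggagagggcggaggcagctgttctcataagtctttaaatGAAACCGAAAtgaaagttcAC
Ctsk: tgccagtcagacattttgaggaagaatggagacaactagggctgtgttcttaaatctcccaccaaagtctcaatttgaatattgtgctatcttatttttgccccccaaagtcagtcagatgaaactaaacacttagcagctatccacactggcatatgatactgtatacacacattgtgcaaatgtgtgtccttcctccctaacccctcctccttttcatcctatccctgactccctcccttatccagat
Ctsc: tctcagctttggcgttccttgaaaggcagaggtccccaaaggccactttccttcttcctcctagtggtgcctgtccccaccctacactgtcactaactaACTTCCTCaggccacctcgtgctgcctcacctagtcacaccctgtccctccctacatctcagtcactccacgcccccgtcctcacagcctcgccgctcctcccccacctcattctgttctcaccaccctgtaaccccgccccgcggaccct
Ctsd: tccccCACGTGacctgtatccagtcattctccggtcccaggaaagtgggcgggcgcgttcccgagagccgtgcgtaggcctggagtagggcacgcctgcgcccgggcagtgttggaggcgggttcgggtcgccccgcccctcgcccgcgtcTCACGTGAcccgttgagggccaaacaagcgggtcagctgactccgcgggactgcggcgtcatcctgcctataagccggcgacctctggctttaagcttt

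The letters searched, on both strands and over 300 bases that include 50 after the start, were the core of interferon response elements (GAAA, any 2 bases, GAAA), GAGGAAGT (bound by PU.1 and related ETS factors), the TATA box letters TATAAA, the E-box CACGTG and its longer form TCACGTGA, which contains it and is known from lysosomal genes. Ctss held the interferon core as GAAACCGAAA at position -21 on its own strand, and the AC that ends its line opens an ACTTCCTC, GAGGAAGT read on the other strand, at position -2; TATAAA, read on the other strand, lay at -233. The same GAGGAAGT lay on the other strand of Ctsc at -151. Ctsd held CACGTG at -245 and at -98, the latter as TCACGTGA at -99. The window of Ctsk held none of these letters. Of the windows not printed, a second start of Ctsa held TCACGTGA at -13 and at 4, Ctsl held CACGTG at -236, and Ctsz and the first start of Ctsa held none. Over all 32851 windows, the interferon core was in 3.44%, GAGGAAGT in 3.2%, TATAAA in 13.6%, CACGTG in 7.15% and TCACGTGA in 0.974%. These matches are descriptions of letters, and binding was not measured.

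Depth ran from 3.30e+07 to 5.22e+07 estimated counts per library, so that 3 counts correspond to 0.0511 to 0.112 CPM (counts per 1000000 counts of the library, scaled by TMM). Bap1 was at 29.5 to 34.8 CPM in the 5 NTC livers and at 17 to 21.8 CPM in the 5 sgBap1 livers, without overlap. Hepatocyte markers, Alb among them, were detected in all libraries and summed to 117599 to 162274 CPM with vehicle and 66032 to 85082 CPM with CCl4. One library stood apart: sgBap1-CCl4 replicate 2 held 383 CPM of 5 adipocyte markers and 1784 CPM of 8 stellate cell and fibroblast markers, against 22 to 30.5 CPM and 595 to 834 CPM in the other CCl4 libraries.

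With CCl4 in NTC livers, 5 of the 9 tested cathepsins changed: Ctsb, Ctsc, Ctsd and Ctsz rose and Ctsh fell (edgeR quasi-likelihood test, Benjamini-Hochberg adjusted p under 0.05). That is to be read against a background of 53.9% of all tested genes called, 27.4% higher and 26.6% lower. The median log2 fold change of the 9 was 0.69, beside 0.03 over all genes tested. In bulk tissue, a change in the number of cells of a type and a change in the RNA per cell cannot be told apart, and this applies to every value here. Without NTC-Veh replicate 2, only Ctsd and Ctsh were still called, with adjusted p of 0.0535 for Ctsb, 0.0528 for Ctsc and 0.109 for Ctsz.

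With CCl4 in sgBap1 livers, again 5 of 9 changed: Ctsd, Ctsk and Ctsz rose and Ctsa and Ctsh fell. The background was 57% of genes called, 29% higher and 28% lower, and the median of the 9 was 0.16 beside 0.04 over all genes. Ctsd and Ctsh were called whichever library was left out. Ctsa, Ctsk and Ctsz were not: leaving out sgBap1-Veh replicate 2 ended all 3 calls and left 2, and without sgBap1-Veh replicate 1 they ended too while Ctsc was called, which made 3. Without sgBap1-CCl4 replicate 1 or 3, Ctsa and Ctsz were lost, and without replicate 2, Ctsa and Ctsk were, again 3 calls each. The CCl4 comparisons share no library with each other, but each shares its groups with the guide comparisons.

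With Bap1 targeting in vehicle livers, none of the 9 passed the test, where 0.406% of genes did (0.276% higher, 0.129% lower). At an unadjusted p under 0.05 there were 2, Ctsa and Ctsb, beside 12.3% of all genes, and DESeq2's Wald test called 1, Ctsb, beside 1.98% of the genes it was run on. The median of the 9 was 0.23 beside 0.02 over all genes, with 7 of 9 positive. Ctsa, Ctsb, Ctsd and Ctsz were higher in both sgBap1-Veh mice than in both NTC-Veh mice, a pattern that 21.7% of all genes show with so few mice, and no member was lower in both, as 19.2% of genes were.

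With Bap1 targeting in CCl4 livers, none of the 9 passed, against 0.329% of genes. Ctse alone had an unadjusted p under 0.05, beside 14% of all genes, and DESeq2's Wald test called 0 of the 9 and 1.72% of genes. Ctsa was higher in all 3 sgBap1-CCl4 mice and Ctse lower in all 3, as 10.1% and 10.2% of genes were. The median of the 9 was 0.08 beside 0.00 over all genes. The difference between the CCl4 responses of sgBap1 and NTC livers, the interaction, was called for none of the 9, and 0% of all genes were called. Ctsc had an unadjusted p under 0.05, as did 1764 genes in all, and DESeq2's Wald test called 406 genes and none of the 9.

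**Figure D1:**
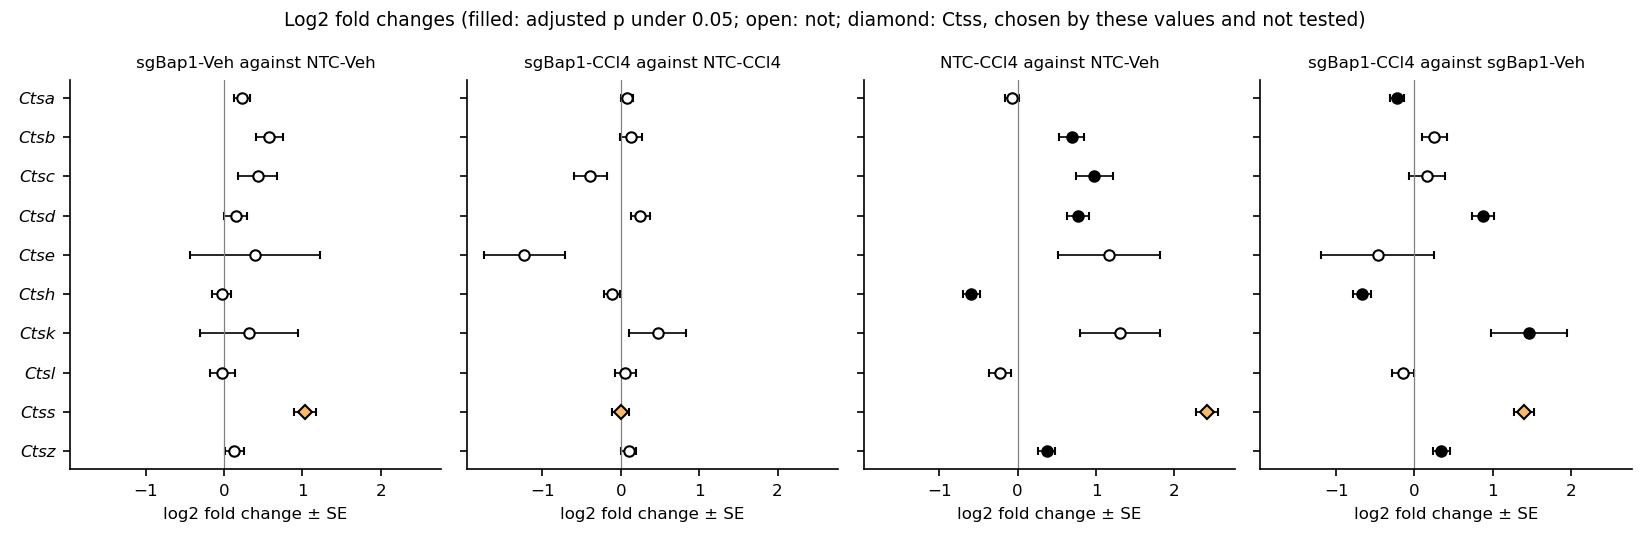
Log2 fold changes of the 10 cathepsins (rows) in 4 comparisons (panels), with bars of 1 SE, filled where the adjusted p was under 0.05, open where not, and a diamond for Ctss, which was not tested. In the CCl4 panels Ctss, whose rise chose the family, lies at 2.42 in NTC and 1.40 in sgBap1 livers, where Ctsk lies at 1.46. Ctsh lies left of 0 in both.

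The scale between libraries bears on these directions. TMM factors were 0.786 to 0.851 with vehicle and 1.08 to 1.24 with CCl4, and scaling by library size alone put the all-gene median with CCl4 at 0.50 (log2) in NTC and 0.52 in sgBap1 livers. The share of called genes that were higher was then 80.5% and 78.3%, in place of 50.8% and 50.9%. On that scale 7 of 9 cathepsins were called higher in NTC and 6 of 9 in sgBap1 livers, beside 50% and 50.6% of all genes called higher, and none lower.

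Ctss is the cathepsin that trims the invariant chain in antigen-presenting cells and remains active at neutral pH. It stood at 29.6 and 24.7 CPM in NTC-Veh mice, 60.3 and 50.2 in sgBap1-Veh mice, 134, 148 and 154 in NTC-CCl4 mice, and 133, 160 and 145 in sgBap1-CCl4. The 3 levels, lowest in NTC-Veh, between in sgBap1-Veh and highest with CCl4, did not overlap, while the CCl4 groups overlapped. The group means were 27.1 ± 3.45 (SD, n = 2), 55.2 ± 7.16 (n = 2), 146 ± 10.3 (n = 3) and 146 ± 13.1 CPM (n = 3). As a description of the values that chose the family, the log2 fold change with sgBap1 was 1.03 (SE 0.14) in vehicle and 0.00 (SE 0.11) in CCl4 livers, and with CCl4 it was 2.42 (SE 0.14) in NTC and 1.40 (SE 0.13) in sgBap1 livers. The difference of the CCl4 responses was -1.02 (SE 0.17), and it lay between -1.16 and -0.88 when each library was left out in turn. Ctss shared no stretch of 50 bases with another gene.

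**Figure D2:**
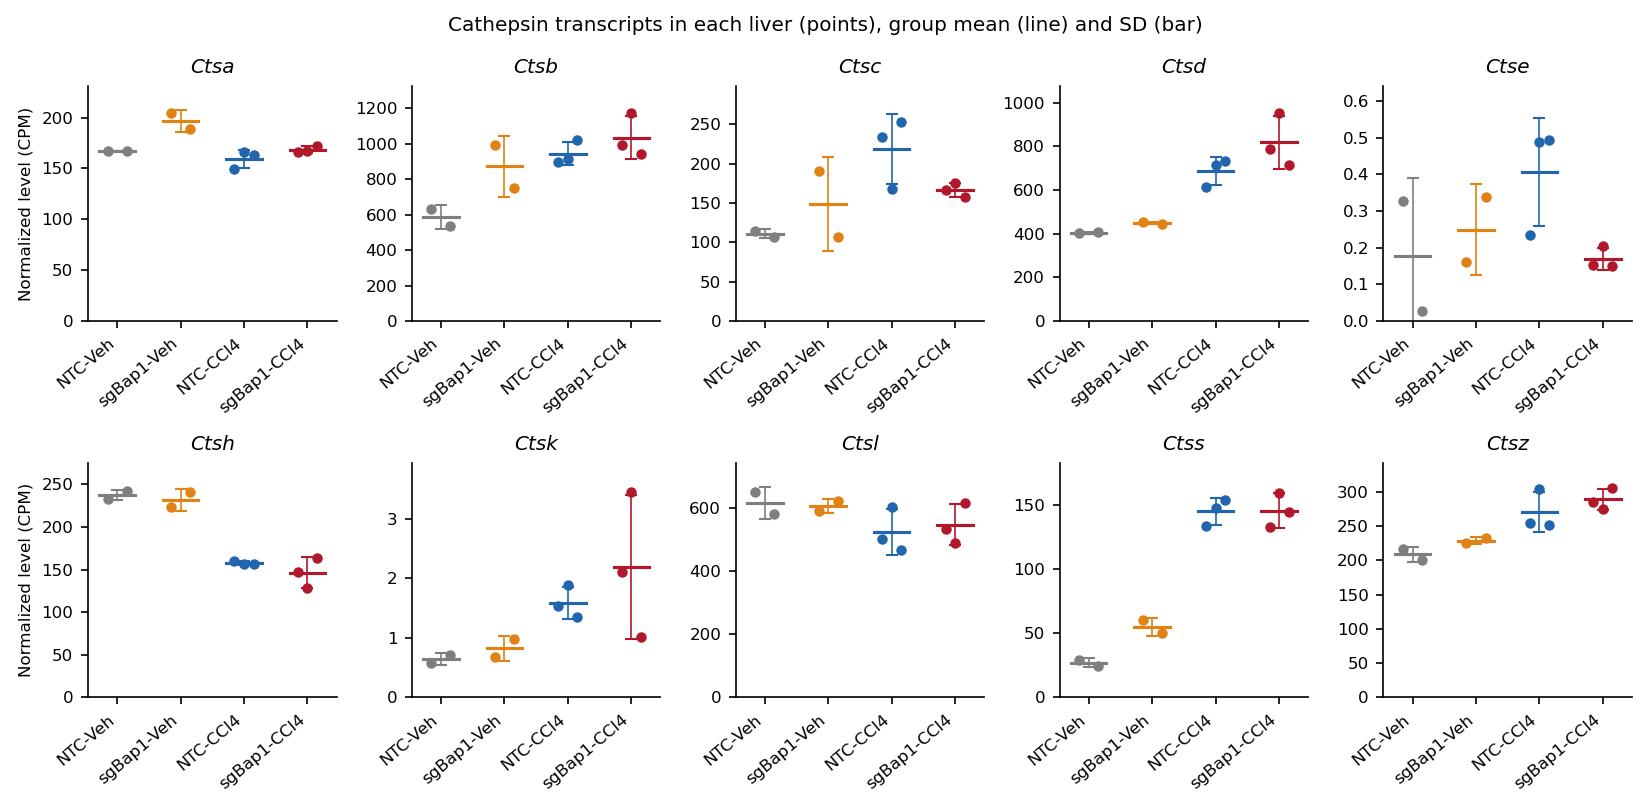
Normalized level (CPM, linear axes from 0) of each cathepsin in the 10 livers, a point per liver, with the mean (line) and SD (bar) of each group; the lower bar of Ctse in NTC-Veh passes below 0 and is not drawn there. Ctss steps from 24.7 to 29.6 CPM in NTC-Veh through 50.2 and 60.3 in sgBap1-Veh to 133 to 160 CPM with CCl4, Ctsd is higher and Ctsh lower in all CCl4 livers, and Ctsl overlaps across groups.

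Ctsb, a broad cysteine protease with carboxypeptidase activity, stood at 633 and 537 CPM in NTC-Veh mice, 994 and 752 in sgBap1-Veh mice, 896, 916 and 1019 in NTC-CCl4 mice, and 992, 1173 and 940 in sgBap1-CCl4. The NTC-Veh mice were lowest, and 1 of the 2 sgBap1-Veh mice lay within the range of the CCl4 groups. It rose with CCl4 in NTC livers by 0.69 on the log2 scale (SE 0.16; 1.61-fold, adjusted p = 0.00466). In sgBap1 livers the difference with CCl4 was 0.25 (SE 0.16, adjusted p = 0.214). The difference with sgBap1 in vehicle livers was 0.58 (SE 0.17, unadjusted p = 0.00773, adjusted p = 0.195), and DESeq2's Wald test gave an adjusted p of 0.0193. The interaction was -0.44 (SE 0.22, adjusted p = 0.55). Ctsb and Fdft1 overlap on opposite strands and share 12.1% of the 50-base stretches of Ctsb, and the Fdft1 count was 4.01% to 92.1% of that of Ctsb; the strand setting of the counting is not given in the sources used here.

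Ctsl, the other abundant endopeptidase of this class, was not called in any comparison on the TMM scale. Its libraries stood at 650 and 580 CPM in NTC-Veh mice, 589 and 622 in sgBap1-Veh mice, 500, 603 and 466 in NTC-CCl4 mice, and 534, 489 and 616 in sgBap1-CCl4. The difference with CCl4 was -0.23 (SE 0.14, adjusted p = 0.196) in NTC and -0.15 (SE 0.14, adjusted p = 0.401) in sgBap1 livers, and turned to 0.24 (not called) and 0.33 with library size alone, where Ctsl was called higher in sgBap1 livers (adjusted p = 0.0318). With sgBap1 it was -0.02 (SE 0.16) in vehicle and 0.06 (SE 0.13) in CCl4 livers. Of its 50-base stretches, 26.3% also occur in other genes.

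Ctsc removes dipeptides from the amino end and activates the granule serine proteases of neutrophils and killer cells. Its levels were 115 and 107 CPM in NTC-Veh mice, 191 and 107 in sgBap1-Veh mice, 234, 168 and 253 in NTC-CCl4 mice, and 166, 176 and 158 in sgBap1-CCl4. The sgBap1-Veh mice differed from each other more than the NTC-Veh mice did, and the CCl4 groups overlapped. It rose in NTC livers with CCl4 by 0.98 (SE 0.24; 1.97-fold, adjusted p = 0.00613). In sgBap1 livers the same difference was 0.16 (SE 0.23, adjusted p = 0.572), and without sgBap1-Veh replicate 1 it was 0.64 (adjusted p = 0.0335). The interaction was -0.82 (SE 0.33, unadjusted p = 0.0321, adjusted p = 0.422), between -1.17 and -0.34 with each library left out.

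Ctsh, an aminopeptidase, fell in both settings. It was at 233 and 242 CPM in NTC-Veh mice, 223 and 241 in sgBap1-Veh mice, 160, 156 and 156 in NTC-CCl4 mice, and 147, 128 and 164 in sgBap1-CCl4. Every CCl4 liver lay below every vehicle liver. The log2 fold change was -0.59 (SE 0.11; 1.51-fold lower, adjusted p = 0.00102) in NTC and -0.67 (SE 0.11; 1.59-fold lower, adjusted p = 0.000448) in sgBap1 livers, and with library size alone it stayed negative at -0.12 (adjusted p = 0.281) and -0.19 (adjusted p = 0.0885). Ctsh and Ctsa were the members of the 9 below every vehicle liver of the same guide, 2 in each comparison, beside 35% of genes in NTC and 34.9% in sgBap1 livers.

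Ctsz, a carboxypeptidase found in myeloid and many other cells, rose by smaller steps. It stood at 216 and 201 CPM in NTC-Veh mice, 225 and 232 in sgBap1-Veh mice, 254, 304 and 252 in NTC-CCl4 mice, and 285, 275 and 306 in sgBap1-CCl4. The vehicle groups lay below the CCl4 groups without overlap. The log2 fold change was 0.37 (SE 0.11; 1.3-fold, adjusted p = 0.0161) in NTC and 0.34 (SE 0.11; 1.26-fold, adjusted p = 0.0244) in sgBap1 livers. With CCl4, 5 of the 9 members lay above every vehicle liver of the same guide in NTC and 3 in sgBap1 livers, as 36.7% and 37.3% of all genes did. With sgBap1, Ctsz differed by 0.13 (SE 0.12, adjusted p = 0.753) in vehicle and 0.10 (SE 0.10, adjusted p = 0.707) in CCl4 livers.

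Ctsk, the collagen-degrading cathepsin known from osteoclasts and fibroblasts, was near the lower limit of measurement, with 21 to 26 counts per library with vehicle and 48 to 201 with CCl4. Its levels were 0.572 and 0.72 CPM in NTC-Veh mice, 0.673 and 0.973 in sgBap1-Veh mice, 1.54, 1.88 and 1.35 in NTC-CCl4 mice, and 2.11, 3.44 and 1.02 in sgBap1-CCl4. All CCl4 livers lay above all vehicle livers, and the sgBap1-CCl4 mice spread most. It rose in sgBap1 livers with CCl4 by 1.46 (SE 0.49; 2.74-fold, adjusted p = 0.0274), but without sgBap1-CCl4 replicate 2, the library with the adipocyte and stellate markers, the difference was 0.98 with an adjusted p of 0.0597. In NTC livers it was 1.31 (SE 0.51; 2.47-fold, adjusted p = 0.0528), and this passed the threshold in 5 of the 8 other settings (adjusted p 0.00578 to 0.0758). The 3 sgBap1-CCl4 libraries had the same order in Ctsk and in the summed stellate cell and fibroblast markers, 777, 1784 and 595 CPM, and the part of those cells in the result was not tested.

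Ctsd, the main lysosomal aspartic protease, rose in both settings and kept its call whichever library was left out. It stood at 401 and 406 CPM in NTC-Veh mice, 453 and 445 in sgBap1-Veh mice, 614, 713 and 732 in NTC-CCl4 mice, and 787, 951 and 716 in sgBap1-CCl4. The vehicle mice of a guide differed by little and all CCl4 livers lay above them. The log2 fold change with CCl4 was 0.77 (SE 0.14; 1.7-fold, adjusted p = 0.00115) in NTC and 0.87 (SE 0.14; 1.82-fold, adjusted p = 0.000512) in sgBap1 livers. With sgBap1 it was 0.15 (SE 0.15, adjusted p = 0.772) in vehicle and 0.25 (SE 0.12, unadjusted p = 0.0691, adjusted p = 0.392) in CCl4 livers. A same-strand gene model, Gm49369, shares 32.4% of the 50-base stretches of Ctsd and had 0 counts in every library.

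Ctse, the aspartic protease of stomach and immune cells, was barely present, with 1 to 26 counts per library. Its counts were 12 and 1 in NTC-Veh, 6 and 9 in sgBap1-Veh, 11, 26 and 19 in NTC-CCl4 mice, and 9, 12 and 7 in sgBap1-CCl4. The groups overlapped in CPM, except that NTC-CCl4 (0.235 to 0.494) lay above sgBap1-CCl4 (0.149 to 0.205). The log2 difference with sgBap1 in CCl4 livers was -1.23 (SE 0.52, unadjusted p = 0.0397, adjusted p = 0.329). The other differences were 0.40 (SE 0.83) with sgBap1 in vehicle livers, and 1.17 (SE 0.65) and -0.47 (SE 0.72) with CCl4 in NTC and sgBap1 livers, none past the threshold (adjusted p 0.157 to 0.918). Without NTC-Veh replicate 1, which leaves a single NTC-Veh count, the CCl4 difference in NTC livers was 3.74 (adjusted p = 0.0224).

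Ctsa, the serine carboxypeptidase that also protects beta-galactosidase and neuraminidase in the lysosome, differed little. It was at 167 and 167 CPM in NTC-Veh mice, 204 and 189 in sgBap1-Veh mice, 149, 166 and 163 in NTC-CCl4 mice, and 166, 167 and 172 in sgBap1-CCl4. The sgBap1-Veh mice were the highest and the other groups lay close together. The difference with sgBap1 in vehicle livers was 0.23 (SE 0.10, unadjusted p = 0.0325, adjusted p = 0.346). With CCl4 in sgBap1 livers it fell by 0.22 on the log2 scale (SE 0.09, adjusted p = 0.0471), a call lost in 9 of 10 fits that left out a library and turned to a rise of 0.26 (adjusted p = 0.0434) with library size alone. In NTC livers the difference with CCl4 was -0.07 (SE 0.09, adjusted p = 0.533), and 0.41 (adjusted p = 0.00497) with library size alone. Pltp overlaps Ctsa on the other strand, with a count of 13.1% to 108% of that of Ctsa.

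Per kb of the principal transcript, Ctsl was the most abundant cathepsin of vehicle livers and Ctsd had the highest mean with CCl4; with lengths over all annotated exons Ctsd was first in all 4 groups. In NTC-Veh the order was Ctsl (312 ± 25.2 CPM per kb), Ctsd (190 ± 1.44), Ctsh (147 ± 4.15), Ctsz (145 ± 7.13), Ctsb (123 ± 14.2), Ctsa (45.8 ± 0.0926), Ctsc (44.5 ± 2.48), Ctss (20 ± 2.54), Ctsk (0.427 ± 0.0696) and Ctse (0.0834 ± 0.0994), SD over n = 2. Ctsh and Ctsz, and Ctsa and Ctsc, overlapped in that order. In NTC-CCl4 it was Ctsd (323 ± 29.9), Ctsl (265 ± 36.2), Ctsb (199 ± 13.9), Ctsz (187 ± 20.6), Ctss (107 ± 7.6), Ctsh (97.5 ± 1.42), Ctsc (87.7 ± 18), Ctsa (43.7 ± 2.4), Ctsk (1.05 ± 0.176) and Ctse (0.191 ± 0.0698), SD over n = 3. There Ctsd and Ctsl overlapped, as did Ctsb and Ctsz, and Ctss, Ctsh and Ctsc. Ctss thus stood in place 8 with vehicle and in place 5 with CCl4, in both guides (7 and 4 with lengths over all annotated exons). The place of Ctsl rests on its length: over all annotated exons in place of the 1971 bases of its principal transcript, it had 94.7 CPM per kb in NTC-Veh and stood in place 4, behind Ctsd (172), Ctsz (145) and Ctsb (96.7).

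Shares within a library do not depend on the scale between libraries, but they do depend on the gene lengths. Ctss made up 1.95% ± 0.161 of the summed cathepsin CPM per kb in NTC-Veh, 3.51% ± 0.312 in sgBap1-Veh, 8.18% ± 0.33 in NTC-CCl4 and 7.72% ± 0.421 in sgBap1-CCl4. Ctsh went the other way, from 14.3% ± 1.04 and 12.4% ± 1.19 with vehicle to 7.44% ± 0.478 and 6.51% ± 0.965 with CCl4. Ctsd held 18.5% and 18.2% with vehicle and 24.6% and 27.5% with CCl4, and Ctsl 30.3% and 26.5%, then 20.2% and 20%. For each of these 4 the CCl4 livers lay apart from the vehicle livers. With lengths over all exons the NTC-Veh shares were 3.14% for Ctss, 8.33% for Ctsh, 27% for Ctsd and 14.9% for Ctsl, and the CCl4 livers again lay apart. The 10 genes together took 0.227% to 0.294% of the TMM-scaled library size with vehicle and 0.294% to 0.352% with CCl4. Unlike the shares, these percentages do depend on the scale between libraries, and they are not fractions of the counted reads.

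**Figure D3:**
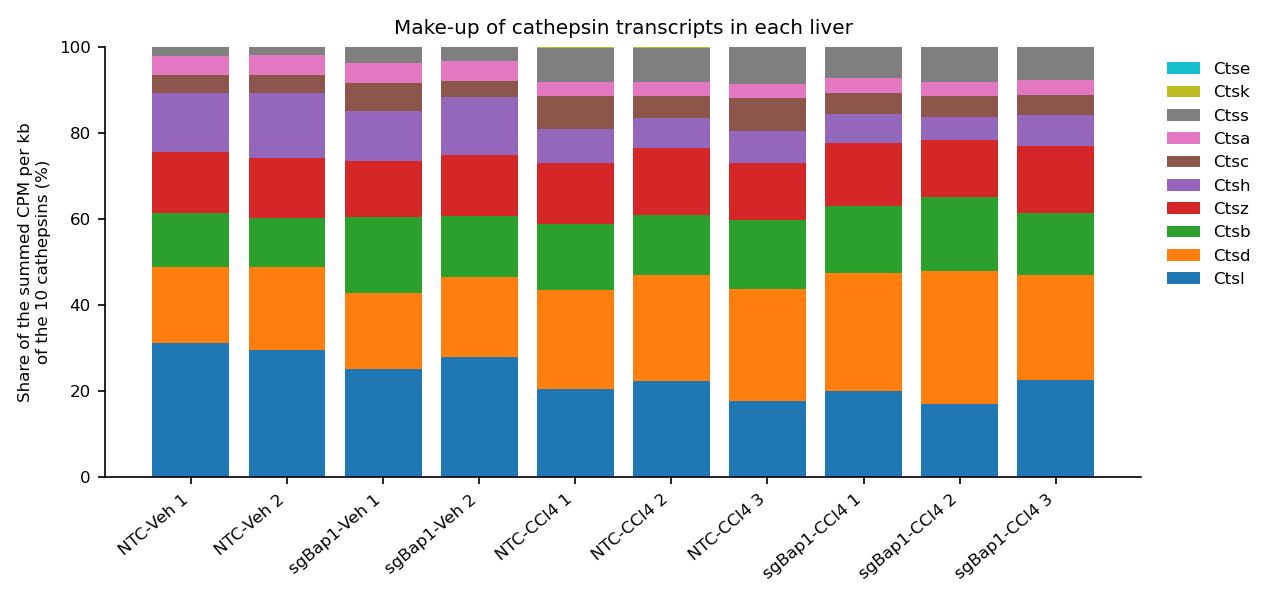
Share (%) of each cathepsin in the summed CPM per kb of the 10, a stacked bar per liver, ordered by group and replicate. The Ctss segment at the top widens from 1.95% in NTC-Veh to 3.51% in sgBap1-Veh and 8.18% in NTC-CCl4, while the Ctsl and Ctsh segments narrow; Ctsk and Ctse are too small to see.

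The summed macrophage markers were lowest in NTC-Veh, as Ctss was, but did not separate sgBap1-Veh from sgBap1-CCl4 livers, as Ctss did. The sum over 11 genes, none of them at 0 in any group, was 305 to 445 CPM in the NTC-Veh mice and 585 to 850 CPM in the sgBap1-Veh mice, and 819 to 1329 CPM in NTC and 749 to 1072 CPM in sgBap1 mice after CCl4. With CCl4 in NTC livers 7 of the 11 rose and none fell, with Marco, a scavenger receptor, up by 4.08. In sgBap1 livers 3 rose (Marco, by 2.76, Csf1r and C1qb) and 2 fell, the Kupffer cell markers Clec4f (-1.29, adjusted p = 0.00155) and Timd4 (-1.13, adjusted p = 0.0366); no rise was called without sgBap1-Veh replicate 2 and 1 without sgBap1-CCl4 replicate 2, with 1 fall in each, while library size alone gave 6 rises and 1 fall. Over all genes, 0.276% were called higher with sgBap1 in vehicle livers, and 1.42% by DESeq2's Wald test. In that comparison 1 of the 11 was called, Csf1r, from 33 ± 3.71 to 68.7 ± 17.2 CPM (adjusted p = 0.0487). That call held in 1 of 10 fits that left out a library and was lost with library size alone and with the replicate block, while DESeq2's Wald test called 8. Of 8 markers of monocytes and recruited macrophages, none was called in that comparison (3 by the Wald test), and all 8 rose with CCl4 in each guide, Gpnmb by 8.14 in NTC and 8.52 in sgBap1 livers; their sum was 96.3 to 106 CPM in NTC-Veh, 143 to 159 in sgBap1-Veh and 710 to 1096 with CCl4. Ctss per CPM of the summed macrophage markers was 0.0737 ± 0.0104 in NTC-Veh and 0.0784 ± 0.0105 in sgBap1-Veh, then 0.147 ± 0.0327 in NTC-CCl4 and 0.164 ± 0.0147 in sgBap1-CCl4. The ratios of the vehicle groups overlapped, and every CCl4 liver lay above them. No ratio was taken to the 8 markers of monocytes and recruited macrophages. Their median log2 fold change with CCl4 was 3.86 in NTC and 3.20 in sgBap1 livers, beside 2.42 and 1.40 for Ctss. The direction of such a ratio therefore depends on the markers chosen, and Ctss was itself picked for its rise. The part of macrophage numbers in the Ctss values was not tested.

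**Figure D4:**
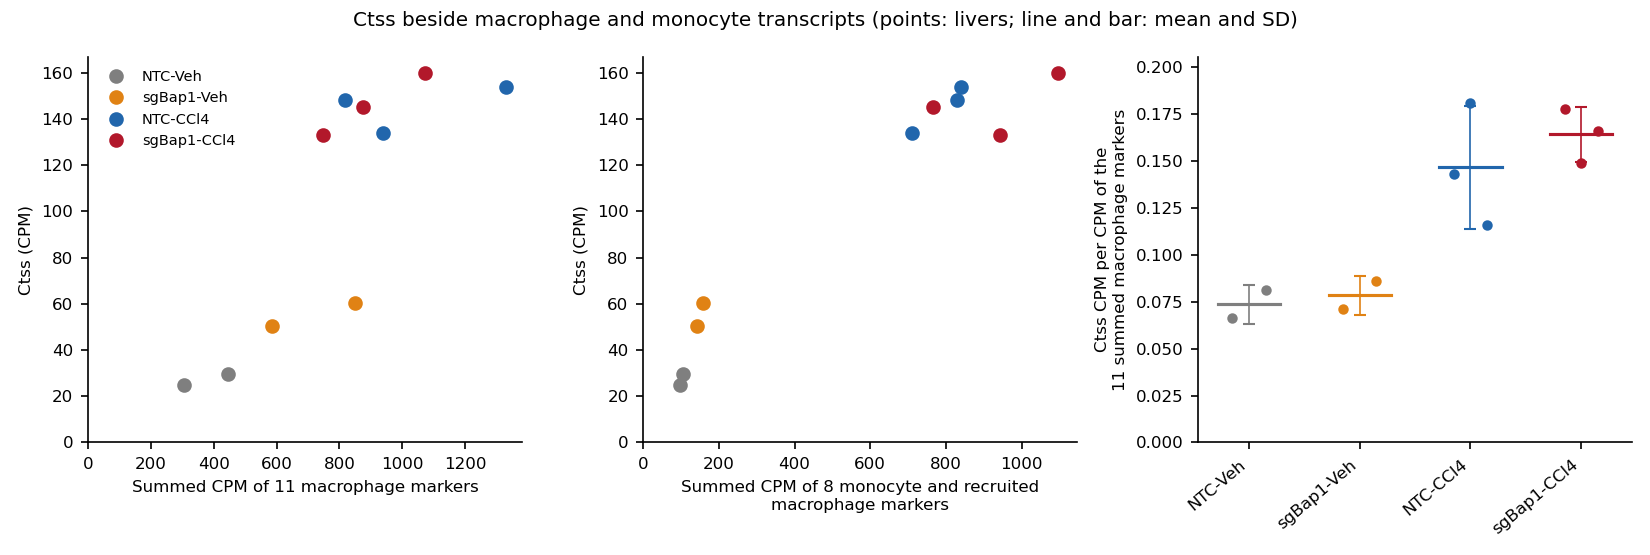
Ctss (CPM) against the summed CPM of 11 macrophage markers (left) and of 8 monocyte and recruited macrophage markers (middle), a point per liver, and the ratio of Ctss to the macrophage sum by group with mean and SD (right). In the right panel the vehicle groups lie at 0.0737 and 0.0784 and the CCl4 groups at 0.147 and 0.164.

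Against the same sum, the ratio was taken for 4 other members, and each had its highest mean in NTC-Veh. The direction of these ratios also depends on the markers chosen. Marco, 1 of the 11 markers, was at 14.9 ± 12.4 CPM in NTC-Veh and 251 ± 117 CPM in NTC-CCl4. Ctsb per CPM of macrophage markers was 1.59 ± 0.243 in NTC-Veh, 1.23 ± 0.0827 in sgBap1-Veh, 0.947 ± 0.176 in NTC-CCl4 and 1.16 ± 0.139 in sgBap1-CCl4 (SD). For Ctsz the same ratio was 0.573 ± 0.125, 0.331 ± 0.0934, 0.277 ± 0.0912 and 0.329 ± 0.0651, and for Ctsc 0.305 ± 0.0644, 0.204 ± 0.0293, 0.215 ± 0.0308 and 0.189 ± 0.0296. Ctsd stood at 1.12 ± 0.305, 0.647 ± 0.161, 0.692 ± 0.163 and 0.919 ± 0.119. Its ratios in NTC-Veh (0.901 and 1.33) and in sgBap1-CCl4 livers (0.819 to 1.05) overlapped.

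Over the 10 libraries, the genes whose log2 CPM was most like that of Ctss, among 12018 with a mean of at least 100 counts, were Cd52 (Pearson r 0.999), Fcer1g (0.998), Apbb1ip (0.997), Tlr1 (0.997), Vav1, Evi2b, Cyba and Inpp5d (each 0.996). The median over the candidates was -0.01. Cd52 went from 5.21 ± 0.984 CPM in NTC-Veh to 10.1 ± 1.71 in sgBap1-Veh and 26.4 ± 2.29 in NTC-CCl4, and Fcer1g, a signalling chain of Fc receptors, from 7.21 ± 1.58 to 13.7 ± 1.08 and 34.9 ± 2.75. For Ctsk the list was Gdf6 (0.971), Naa20 (0.962), Arhgef25 (0.961), Col6a3 (0.957), Rcn3 (0.956), Eml1 (0.955), Snai1 (0.948) and Col1a2 (0.944), with Col6a3 and Col1a2 encoding collagen chains. These are descriptions over libraries that share their groups, and the order of such close values carries no weight.

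Ctsk (chr3:95499256-95509362) and Ctss (chr3:95526786-95556403) lie 17424 bases apart on the plus strand (GENCODE vM21, GRCm38). Per kb, Ctsk was at 0.427 CPM and Ctss at 20 CPM in NTC-Veh, and at 1.05 and 107 CPM in NTC-CCl4. The other members are scattered: Ctse lies at chr1:131638306-131675505, Ctsa at chr2:164832873-164841032, Ctsz at chr2:174427493-174439039, Ctsc at chr7:88278085-88310888, Ctsd at chr7:142375911-142388038, Ctsh at chr9:90054152-90076089, Ctsl at chr13:64359337-64370890 and Ctsb at chr14:63122462-63145923. Within 200000 bases of Ctsk and Ctss lie 12 further protein-coding genes, of which 10 were tested. With CCl4 in NTC livers Anxa9 rose by 1.09 (adjusted p = 0.00176), Cers2 (-0.51), Setdb1 (-0.30), Ecm1 (-0.60) and Adamtsl4 (adjusted p = 0.00027) fell, and 5 were not called. None of the 10 was called with sgBap1 in vehicle livers, where the Ctss value was 1.03.

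Among the partners of Ctss in MHC class II presentation, 5 of 9 genes were called higher with sgBap1 in vehicle livers, beside 0.276% of all genes. These were Cd74, the invariant chain that Ctss trims (1.35, SE 0.21), H2-Aa (1.43), H2-Ab1 (1.39), H2-Eb1 (1.36) and H2-DMa (1.23), with adjusted p of 0.0283 to 0.0385. The calls were lost when some single libraries were left out, while the 5 differences stayed at 1.17 or above. None of the 9 was called with library size alone, with the replicate block, without any 1 of the 4 vehicle libraries or without NTC-CCl4 replicate 2; without NTC-CCl4 replicate 1 there were 3 and without sgBap1-CCl4 replicate 3 there was 1. The Cd74 difference lay between 1.22 and 1.47 over the fits that left out a library. DESeq2's Wald test called 6 of the 9 higher, beside 1.42% of genes, and DESeq2 size factors gave 5, beside 0.347%. With CCl4 in NTC livers 7 of 9 rose, H2-DMb1 by 1.31, and in sgBap1 livers none rose and 4 fell (H2-Aa, H2-Ab1, H2-Eb1 and H2-Ob, -0.61 to -0.73); none was called with library size alone or without sgBap1-Veh replicate 1, and 2 were without sgBap1-Veh replicate 2. The interaction was called for 0 of the 9, with 8 at an unadjusted p under 0.05 beside 10.4% of all genes. DESeq2's Wald test called 6 of these interactions lower, beside 1.46% of genes called in either direction. Cd74 stood at 64.2 ± 4.38 CPM in NTC-Veh, 163 ± 19.7 in sgBap1-Veh, 143 ± 33.9 in NTC-CCl4 and 119 ± 19.8 in sgBap1-CCl4. Ctss per Cd74, per kb, was lower in sgBap1-Veh (0.352 ± 0.00316) than in NTC-Veh (0.439 ± 0.0259), and higher with CCl4 (1.09 ± 0.191 and 1.29 ± 0.108).

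The inhibitors did not move as one. Cst3, the abundant secreted cystatin, was at 95.8 to 111 CPM in every group mean and was not called in any comparison, so that Ctss per Cst3, per kb, went from 0.171 ± 0.00853 in NTC-Veh to 0.331 ± 0.0331 in sgBap1-Veh and 0.971 ± 0.124 in NTC-CCl4. Cstb, the cytosolic inhibitor of Ctsb and related proteases, rose with CCl4 by 1.37 (SE 0.13, adjusted p = 1.41e-05) in NTC and 1.79 (SE 0.13, adjusted p = 3.44e-06) in sgBap1 livers. Ctsb per Cstb, per kb, was 2.63 ± 0.154 in NTC-Veh and 4.19 ± 1.08 in sgBap1-Veh but 1.66 ± 0.241 and 1.42 ± 0.0718 with CCl4. Kng1 and Kng2, the kininogens of plasma, fell in both settings. Of 7 inhibitors tested, 2 were called higher and 2 lower with CCl4 in each guide, and none was called with sgBap1. Of those called higher, only Cstb stood well above the filter on low counts. With library size alone 5 rose and 1 fell in NTC livers and 3 rose and 2 fell in sgBap1 livers, so this balance depends on the scale. Without NTC-Veh replicate 2 or NTC-CCl4 replicate 3, 1 rose in NTC livers, and without sgBap1-Veh replicate 2, 1 in sgBap1 livers. The 2 other rises were at a few counts. Cst7 was at 0.0272 CPM in NTC-Veh and 0.205 in NTC-CCl4, and Stfa2l1 at 0.0269 in sgBap1-Veh and 0.334 in sgBap1-CCl4. Both passed the filter through CCl4 livers, where they are high, so those 2 calls carry no weight as tests.

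Of 13 further cathepsins, 4 passed the filter on low counts, and with CCl4 Ctsf and Ctso fell in both guides. Ctsj, a cathepsin known from placenta, was at 0 to 0.0538 CPM in the vehicle livers, under the level of 3 counts in each. In the CCl4 livers it was at 0.808 to 1.71 CPM. It passed the filter only through the CCl4 livers, so its higher level there is a description and not a test. Ctsf fell by 1.65 on the log2 scale in NTC (SE 0.12, adjusted p = 2.87e-06) and by 1.39 in sgBap1 livers. Ctso fell by 0.74 and by 1.15. None of the 4 was called with sgBap1. In vehicle livers the Ctsf difference was -0.54 (unadjusted p = 0.00157, adjusted p = 0.1), which DESeq2's Wald test called, and Ctsw, of killer lymphocytes, differed by 1.33 (unadjusted p = 0.0145, adjusted p = 0.251).

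Of 6 proteases that act beside the cathepsins, 3 were called higher with CCl4 in NTC and all 6 in sgBap1 livers, beside 27.4% and 29% of all genes. With library size alone all 6 rose in NTC livers too, and without sgBap1-CCl4 replicate 2 there were 5, and none of the 6 interactions was called. Lgmn, the asparaginyl endopeptidase that processes several cathepsins, rose by 2.19 (SE 0.18, adjusted p = 6.99e-06) in NTC and 1.63 in sgBap1 livers, and Napsa, an aspartic protease, by 3.03 and 2.58. Among granule proteases that Ctsc activates, 3 were tested; Prtn3, the proteinase of neutrophil granules, rose by 4.22 (SE 0.51, adjusted p = 0.000127) in NTC and 4.51 in sgBap1 livers, and Gzma and Gzmb were called in NTC livers (1.05 and 1.14) and not in sgBap1 livers (0.63 and 0.03); in NTC livers 1 of the 3 was called by the Wald test and without either NTC-Veh library or NTC-CCl4 replicate 1. Neutrophil markers summed to 5.76 to 12 CPM with vehicle and 27.9 to 39.1 CPM with CCl4, and their part in these values was not tested.

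Other parts of the lysosome held genes that rose and genes that fell with CCl4, and the balance differed from list to list. Of all tested genes, 27.4% were called higher and 26.6% lower in NTC livers, and 29% and 28% in sgBap1 livers. The CCl4 counts of every gene list given here are to be read beside these shares. Of 33 hydrolases, 14 rose and 7 fell in NTC livers (for example Gla, alpha-galactosidase, by 1.79 and Fuca1, alpha-fucosidase, at -0.50), and 12 rose and 9 fell in sgBap1 livers, among them Man2b1, a mannosidase, at -0.64. Of 19 membrane proteins, 3 rose and 10 fell in NTC livers and 3 rose and 9 fell in sgBap1 livers, with Npc1, the cholesterol exporter, at -1.02 and -1.24 and the tetraspanin Cd63 up by 4.24 and 4.03. Of 16 subunits of the proton pump, 8 rose and 1 fell in each guide, with Atp6v1b2 up by 1.04 in NTC, Atp6ap2 up by 1.15 in sgBap1 livers and Atp6v0d2 at -1.84 and -1.26. Of 10 genes of enzyme sorting, 5 rose and 1 fell in each guide, the mannose 6-phosphate receptors M6pr and Igf2r (0.44 in NTC livers) among the former and Gnptg, a subunit of the enzyme that makes the mannose 6-phosphate tag, at -0.77 and -0.71. Several of these counts rest on single libraries. In NTC livers, 1 sorting gene and 5 pump subunits rose and 4 membrane proteins fell without NTC-Veh replicate 1, 4 pump subunits rose and 3 hydrolases fell without NTC-Veh replicate 2, and 2 sorting genes and 5 pump subunits rose without NTC-CCl4 replicate 3. In sgBap1 livers, 3 sorting genes rose without either sgBap1-Veh library, 4 hydrolases fell without sgBap1-Veh replicate 1 and 5 without sgBap1-CCl4 replicate 2, and 5 membrane proteins fell without sgBap1-Veh replicate 2. With library size alone the hydrolases counted 23 rises and no fall in NTC livers and the membrane proteins 9 rises and 2 falls, so the balance within these lists depends on the scale. With sgBap1 in vehicle livers, Sort1, a sorting receptor, fell by 1.40 on the log2 scale (SE 0.13, adjusted p = 0.012), a call lost without NTC-Veh replicate 2 or sgBap1-Veh replicate 1, and no other gene of these 4 lists was called.

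Of 8 transcription factors of lysosomal and myeloid genes, 1 was called with sgBap1 in vehicle livers, beside 0.276% of all genes called higher. It was Irf8, which rose by 0.95 (SE 0.16, adjusted p = 0.0418). That call held in 2 of 10 fits that left out a library and was lost with library size alone and with the replicate block. With CCl4, 6 of the 8 rose in NTC livers, and 5 rose and 1 fell in sgBap1 livers, Irf1, an interferon response factor, at -0.68 (adjusted p = 0.00082); Irf1 was not called there with library size alone. Spi1, which encodes PU.1, rose by 2.20 (SE 0.22, adjusted p = 2.48e-05) in NTC and 1.40 in sgBap1 livers, and Irf8 by 1.68 and 0.79. Tfeb, a regulator of lysosomal genes, differed by -0.03 (adjusted p = 0.813) in NTC and -0.25 (adjusted p = 0.0713) in sgBap1 livers. Factor binding was not measured, and nothing about it follows from these levels or from the letters printed above.

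**Figure D5:**
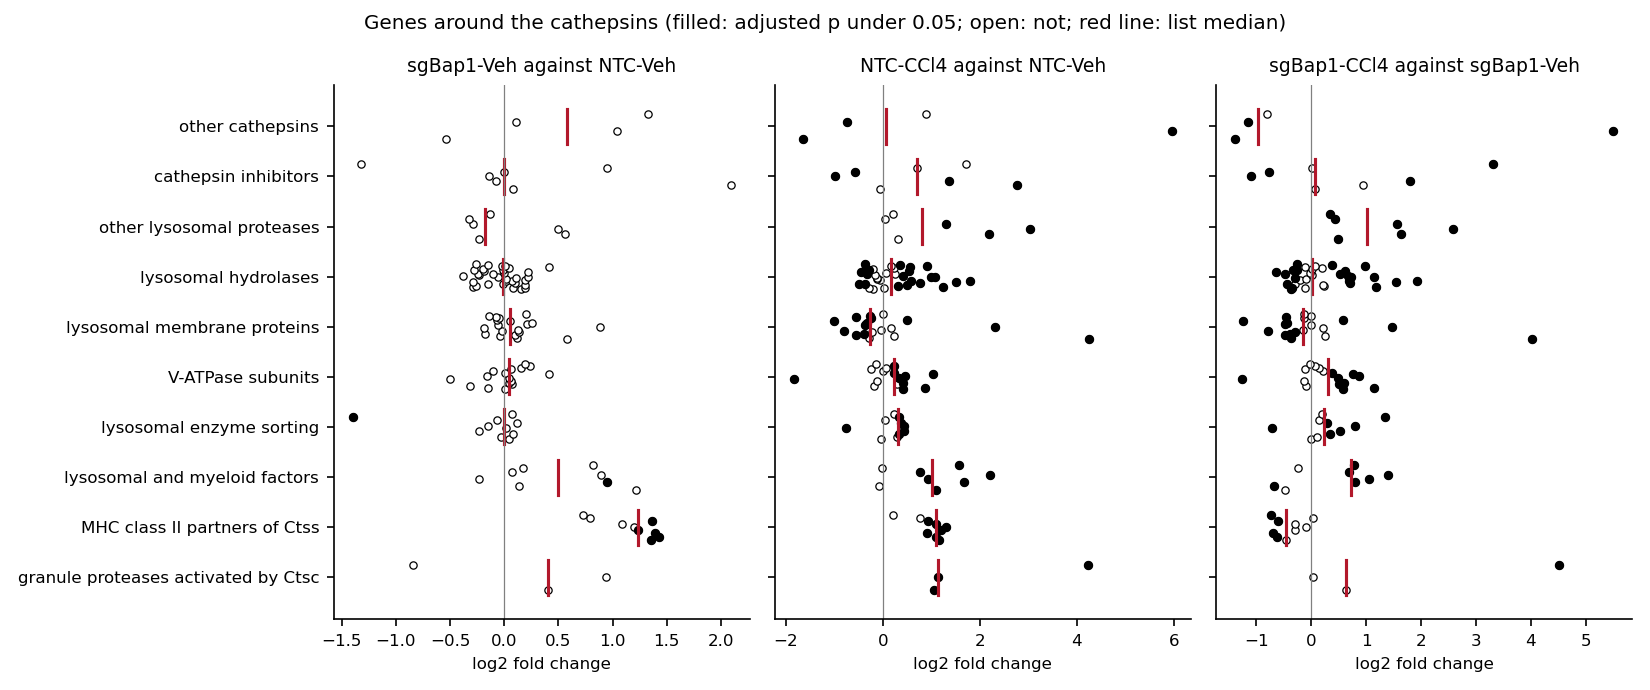
Log2 fold changes of the genes of 10 lists around the cathepsins (rows) in 3 comparisons (panels), a point per tested gene, filled where the adjusted p was under 0.05, with the list median in red. In the left panel filled points occur among MHC class II partners (5), factors (Irf8) and sorting (Sort1). In the other panels the hydrolases, membrane proteins, pump subunits and sorting genes lie on both sides of 0. The 6 other lysosomal proteases lie right of 0 in both.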

How the data were processed

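Polyadenylated RNA of 10 mouse livers (right lobe) was sequenced as stranded paired reads of 50 bases. The authors aligned reads with STAR 2.7.6a to GRCm38 and quantified them with Salmon 1.4.0 on GENCODE vM25, and deposited the estimated counts per gene, not normalized, of which 9.22% were not whole; the counts of Salmon are expected counts. The labels give replicate numbers and no animal names, so p-values measure the spread between these samples.

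After rounding of the counts to whole numbers, edgeR 4.0.16 (R 4.3.3) was used with filterByExpr, TMM, 1 robust quasi-likelihood model of the 4 groups, two-sided tests, Benjamini-Hochberg adjustment over the 17015 genes and a threshold of 0.05. CPM values use TMM-scaled library sizes, and likeness used log2 CPM with a pseudocount of 2. Lengths, positions and overlaps come from GENCODE vM21; vM25 was not used here. The promoter table held 7 of the 10 members; Ctsb, Ctse and Ctsh had no entry. The scripts were tested on simulated data.

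The members and gene lists were chosen with earlier results of these data known. All members are named; of a list of genes around the cathepsins, the called gene with the largest change in each direction, and known partners, substrates or inhibitors of a member. Other genes named (cell type markers, Tfeb, Ctsw, M6pr, Gzma and Gzmb among them) were chosen after their values were seen. Alternatives were DESeq2 size factors, library size alone, no filter beyond 1 count, the replicate number as a block, a minimum mean of 10 counts, DESeq2 1.42.0's Wald test, the quasi-likelihood of edgeR 3, only the 2 groups compared, and each library left out in turn. With a vehicle group reduced to 1 library, that library is assumed to vary like the others.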

Additional observations from a re-analysis of the deposited data

How the results depend on the processing

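Of the counts of cathepsins called, with CCl4 in sgBap1 livers the replicate block and the model of 2 groups only each gave 3 in place of 5, DESeq2's Wald test gave 1 in place of 0 with sgBap1 in vehicle livers, and leaving out a library gave 2 to 6 with CCl4 in NTC and 2 to 5 in sgBap1 livers. No paired design is stated, and same-numbered libraries did not deviate together (correlations -0.15 to 0.02). With so few libraries per group, these correlations cannot settle whether the numbers mark a batch or a pairing. The block called 6 cathepsins with CCl4 in NTC livers and added Ctsk there. Over all genes, sgBap1 in vehicle livers called 69, and 32 with library size alone, 1 with the replicate block, 551 by the Wald test, 27 with 2 groups only and 0 to 150 with a library left out (0 without NTC-Veh replicate 2, 150 without sgBap1-CCl4 replicate 2). In CCl4 livers sgBap1 called 56, and 94 with no filter, 24 with the block, 480 by the Wald test, 28 with 2 groups only and 1 to 71 with a library left out. The interaction called 0, and 2 with library size alone, 34 with no filter, 406 by the Wald test and 0 to 7 with a library left out. The causes were not tested.

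With library size alone the CCl4 difference changed sign for Ctsa (0.41 in NTC, 0.26 in sgBap1 livers), Ctsl (0.24 and 0.33) and, in sgBap1 livers, Ctse (0.01). Leaving out a library changed the sign of some differences that were not called, which in size reached -0.47 (Ctse with CCl4 in sgBap1 livers) and 0.47 (Ctsk with sgBap1 in CCl4 livers). With sgBap1 in vehicle livers the ranges were -0.06 to 0.78 for Ctsc, -0.46 to 2.97 for Ctse, -0.09 to 0.02 for Ctsh and -0.10 to 0.06 for Ctsl. In CCl4 livers they were -0.01 to 0.78 for Ctsk and -0.04 to 0.18 for Ctsl. With CCl4 in sgBap1 livers they were -0.19 to 0.64 for Ctsc and -0.97 to 0.08 for Ctse. For the interaction they were -0.03 to 0.18 for Ctsd, -0.18 to 0.01 for Ctsh, -0.33 to 0.46 for Ctsk, -0.02 to 0.20 for Ctsl and -0.09 to 0.06 for Ctsz. Of the member values under the other settings, 367 kept direction and side of the threshold; with a library left out, 458 did. Ctse and Ctsk are limited by counts of at most 26 and 201.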
